A study of Mus musculus with 6 samples.

Results

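The 9 genes described here encode core and accessory proteins of the Polycomb group, and they were chosen by name: Ezh1, Ezh2, Eed, Suz12 and Jarid2 of Polycomb repressive complex 2, and Ring1, Rnf2, Bmi1 and Cbx7 of Polycomb repressive complex 1. They are 9 of the 18193 genes that had a probe set with 1 gene symbol on a mouse expression array, and 27 of the array's 45101 probe sets carry their names. In 19 of those 27 probe sets the mean log2 value reached the median of all probe sets, which was the filter for testing, and every one of the 9 genes kept at least 1. The other 8 probe sets, which belong to Ezh1, Eed, Rnf2 and Cbx7, were too dim to be tested.

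The 6 arrays each hold RNA of 1 whole mammary gland sample, from females on a mixed 129/FVB/Black Swiss background, with 1 Brca1 mutant and 1 control at each of 3 stages. The study asked which genes depend on Brca1. Virgin mice were aged 6 months, and lactating mice, on day 1 of lactation, were aged 2 months. In both of these pairs the mutant was Brca1 D11/D11;p53+/- and the control, labelled Brca1 D+/+;p53+/-, carried the same loss of 1 p53 copy. D11 stands for the deletion of exon 11 of Brca1, and co for a conditional allele that Cre can recombine. The pregnant pair, at day 16.5 and 5 months of age, was Brca1 co/co/MMTV-Cre for the mutant and Brca1 +/co/MMTV-Cre for the control. There Cre runs from the mouse mammary tumour virus promoter, which acts mainly in the mammary epithelium. Which cells of those glands had recombined cannot be read from the arrays. The control also carries 1 conditional copy that Cre can recombine. The series' own design text calls every mutant D11/D11;p53+/-, and the labels of the individual mice were followed here. Each stage holds 1 mouse of each genotype, so the spread behind every test is the disagreement between pairs.

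Polycomb proteins keep genes silent through histone marks. Complex 2 places methyl groups on lysine 27 of histone H3 through its catalytic subunit, EZH2 or EZH1, with EED and SUZ12 as obligate partners, and JARID2 helps to bring it to chromatin. Complex 1 puts ubiquitin on histone H2A through RING1 or RNF2, joined by BMI1 or a relative, and a CBX protein such as CBX7 can read the methyl mark. In the mammary gland EZH2 and BMI1 are known for their part in the upkeep of progenitor cells, and EZH2 is usually abundant in dividing cells.

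RefSeq windows on GRCm38.p6, which run from 250 bases before to 50 bases after an annotated start, were found for 9 of 9 genes, and Jarid2 has 2 of them. The windows of Ezh2 and Suz12 are printed because they alone among the members hold an E2F octamer, shown in capitals. That of Bmi1, the gene with the steadiest fall in the results, holds an E-box in capitals. Ezh1 is printed as the close relative of Ezh2 whose window holds neither.
Ezh2, chr6:47594981-47595280, minus strand: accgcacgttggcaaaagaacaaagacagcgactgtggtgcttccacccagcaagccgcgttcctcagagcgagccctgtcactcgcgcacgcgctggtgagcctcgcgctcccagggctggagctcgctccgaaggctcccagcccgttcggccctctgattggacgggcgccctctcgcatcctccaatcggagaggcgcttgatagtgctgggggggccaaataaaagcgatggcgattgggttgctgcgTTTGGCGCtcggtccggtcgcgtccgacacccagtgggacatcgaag
Suz12, chr11:79992856-79993155, plus strand: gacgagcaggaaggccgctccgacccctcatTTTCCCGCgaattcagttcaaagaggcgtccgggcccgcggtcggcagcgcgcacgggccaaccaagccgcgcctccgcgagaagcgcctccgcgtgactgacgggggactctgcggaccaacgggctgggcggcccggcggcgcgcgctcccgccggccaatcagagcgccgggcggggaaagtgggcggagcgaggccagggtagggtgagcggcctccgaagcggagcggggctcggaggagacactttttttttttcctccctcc
Bmi1, chr2:18676768-18677067, plus strand: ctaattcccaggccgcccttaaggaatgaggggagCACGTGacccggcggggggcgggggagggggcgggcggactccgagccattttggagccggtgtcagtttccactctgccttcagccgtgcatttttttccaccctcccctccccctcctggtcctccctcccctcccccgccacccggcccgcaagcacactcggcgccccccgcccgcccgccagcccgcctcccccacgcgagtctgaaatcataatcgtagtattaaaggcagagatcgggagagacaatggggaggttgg
Ezh1, chr11:101226414-101226713, minus strand: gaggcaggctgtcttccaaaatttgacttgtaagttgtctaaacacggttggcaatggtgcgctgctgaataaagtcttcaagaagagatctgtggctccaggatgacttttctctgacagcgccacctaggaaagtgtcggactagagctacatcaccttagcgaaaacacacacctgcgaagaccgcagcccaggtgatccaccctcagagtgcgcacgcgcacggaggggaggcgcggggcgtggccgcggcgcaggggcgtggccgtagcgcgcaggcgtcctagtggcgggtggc

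The E2F search covered TTTCCCGC, TTTGGCGC, TTTGCCGC and TTTCGCGC on both strands, and 2.26% of the 32851 windows of this length held at least 1 of them. In Ezh2 the match lies 3 bases after the start, and in Suz12 it lies 219 bases before it. The E-box CACGTG, which reads the same on both strands, stood in 7.15% of all windows and 215 bases before the start of Bmi1. CCAAT on either strand was found in 37.4% of all windows and in those of 5 members. No searched form contains another, and a match describes only the letters in the window. The member windows held 17 to 41 CpG dinucleotides, against a median of 7 over all windows. The genes themselves lie apart, on chromosomes 1, 2, 6, 7, 11, 13, 15 and 17, with Ezh1 and Suz12 both on 11.

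The deposited MAS5 signals were already scaled, with a trimmed mean of 500 on every array. Even so the median signal rose from 119.9 and 139.4 on the virgin arrays to 231 and 211 on the lactating ones. A log2 ratio here is a difference of log2(signal + 52.1), which understates changes of dim genes. Brca1 itself did not track genotype: its signal was 137 in the control against 486.5 in the mutant among virgin mice, 159 against 288 among pregnant and 238 against 157 among lactating mice. The files do not say whether that probe set lies within the deleted part, so it checks nothing about the labels. The luminal keratin genes Krt8, Krt18 and Krt19 and the caseins Csn1s1, Csn2 and Csn3 lay far above the filter's signal, 158.4, on all arrays, as fits mammary tissue. The milk gene Lalba, by contrast, read 61.5 and 27.9 in virgin glands. The ratio of the 3' to the 5' actin probe sets, a sign of RNA quality, was 2.74 and 2.03 on the virgin arrays and between 1.37 and 1.91 on the other 4. The same ratio for Gapdh was 3.50 and 1.52 on the virgin arrays and between 0.73 and 1.20 on the other 4, so RNA quality moves with the contrast to virgin glands, and its part in the results was not tested. The lactating arrays also carry another array date. Stage, age and array date therefore cannot be told apart in comparisons with lactation, nor stage, age, Brca1 allele, p53 status and MMTV-Cre in those with pregnancy.

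Lactating glands had less signal than virgin glands for 6 of the 9 Polycomb genes. The limma test covered 11332 genes, with 1 probe set chosen for each. Ezh2, Eed, Rnf2, Bmi1, Cbx7 and Jarid2 fell in it by between 1.95-fold and 2.97-fold. None of the 9 rose at its chosen probe set, though other probe sets of Suz12 and Ezh1 did. Of all genes tested 28.2% were called lower, 23.8% higher and 52.0% either way. The median log2 ratio of the 9 members was -1.01, against -0.10 for all genes. Ezh1, Suz12 and Ring1 did not pass the test. Because the samples are whole glands, fewer cells of a type and less RNA per cell cannot be told apart.

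**Figure D1:**
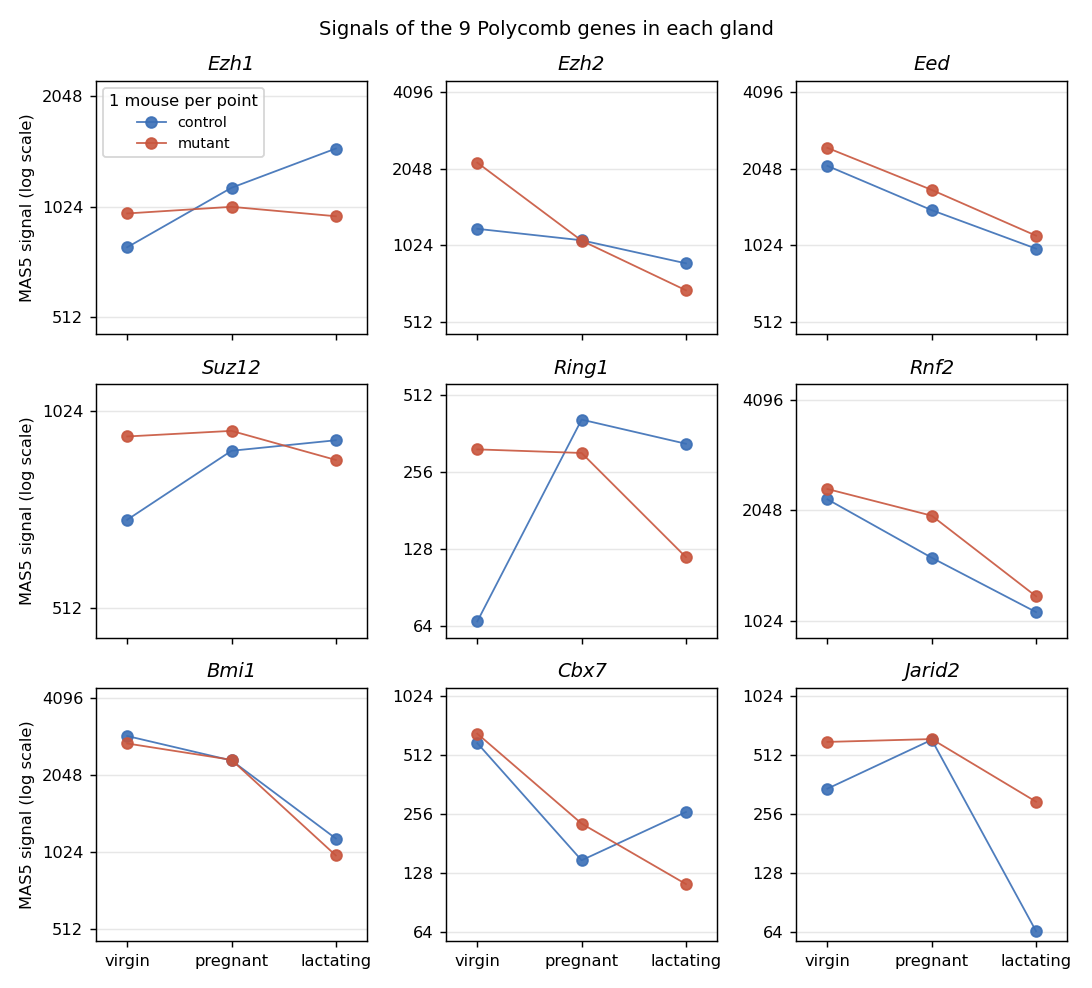
Deposited MAS5 signal (vertical axis, logarithmic, with its own range for each gene) of the 9 Polycomb genes in each of the 6 arrays, by stage, with the control and the mutant mouse of each stage as separate points. Lines join points of 1 genotype class across stages only to guide the eye, since every point is another mouse. Bmi1, Eed, Rnf2, Ezh2 and Jarid2 are lowest in both lactating mice, while the lactating values of Ezh1 and Suz12 overlap those of other stages.

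Ezh2, the main catalytic subunit of complex 2, gave signals of 1189.9 and 2159.8 in virgin, 1073 and 1069.8 in pregnant and 872 and 684 in lactating glands, the control named first here and in all such pairs of values. Both lactating mice lay below the other 4, and the virgin mutant stood far above the rest. The lactating to virgin log2 ratio was -1.01 ± 0.29 (SE, limma adjusted p = 0.021), a 2.01-fold difference. That call rests on the outer mice: the limma ratio was -0.51 (adjusted p = 0.213) without the virgin mutant and -0.64 (adjusted p = 0.1175) without the lactating mutant.

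Eed encodes the subunit that binds the methyl mark and stimulates the enzyme. Its signals were 2098 and 2467 in virgin, 1408 and 1689.6 in pregnant and 995 and 1118.5 in lactating glands. The 3 stages did not overlap, with virgin glands highest and lactating glands lowest. From virgin to lactating glands Eed fell by 1.07 ± 0.18 on the log2 scale (SE, limma adjusted p = 0.002623). A second, dim Eed probe set read between 44.8 and 158.9. When a gene's probe sets were averaged instead, the Eed ratio shrank to -0.23 (limma adjusted p = 0.4003).

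Suz12, the scaffold that holds complex 2 together, gave 698 and 937 in virgin, 891 and 956 in pregnant and 925 and 863 in lactating glands with its chosen probe set. These values overlapped at all stages. The lactating to virgin ratio was 0.13 ± 0.21 (SE, 95% interval -0.36 to 0.63, limma adjusted p = 0.6189), and centring the arrays on their medians turned it to -0.46. Its 6 probe sets gave very different pictures, described further on.

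Ezh1, the second catalytic subunit and the one typical of resting cells, gave 794 and 982 in virgin, 1154 and 1024 in pregnant and 1475 and 965 in lactating glands. The lactating mice lay on both sides of the pregnant ones. The lactating to virgin ratio was 0.41 ± 0.25 (SE, 95% interval -0.16 to 0.99, limma adjusted p = 0.1938), and median centring turned it to -0.17. Without the lactating mutant it was 0.74 and passed the limma test (adjusted p = 0.04765). Ezh2 and Ezh1, which can fill the same place in complex 2, thus had ratios of opposite sign at the deposited scaling, with only that of Ezh2 called, and the difference between the 2 was not tested.

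Jarid2, the accessory subunit, showed the widest span of log2 values of the 9, at 2.52. It read 344 and 597 in virgin, 612 and 617 in pregnant and 64.6 and 296 in lactating glands. Both lactating mice were below all others, and the lactating control lay near the pseudocount of 52.1. Against virgin glands Jarid2 fell by 1.33 ± 0.37 (SE, limma adjusted p = 0.01814). Without the lactating control the ratio was -0.72 (limma adjusted p = 0.1066), and it also missed the threshold without either virgin mouse, with limma adjusted p-values of 0.09127 without the control and 0.06885 without the mutant.

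In complex 1, Bmi1 encodes a ring finger partner that boosts the ligase and gave the steadiest difference. Its signals were 2919 and 2729 in virgin, 2341.5 and 2355 in pregnant and 1159 and 995 in lactating glands. The 2 mice of a stage differed little, and no stage overlapped another. Bmi1 fell 2.55-fold from virgin to lactating glands, by 1.35 ± 0.18 on the log2 scale (SE, limma adjusted p = 0.001066). It was called in all 16 alternatives tried for this comparison, with log2 ratios from -1.94 to -1.21. A second Bmi1 probe set, with 1577 and 1633 in virgin glands and 731 and 728 in lactating ones, fell by 1.08 ± 0.20 (SE, limma over probe sets, adjusted p = 0.003282).

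Rnf2 encodes the main ubiquitin ligase of complex 1. It read 2192 and 2339 in virgin, 1519.7 and 1978 in pregnant and 1081 and 1193.5 in lactating glands, so the stages again did not overlap. The fall from virgin to lactating glands was 0.96 ± 0.19 (SE, limma adjusted p = 0.00478). A second bright probe set fell by 0.91 ± 0.21 (SE, limma over probe sets, adjusted p = 0.008117). The call was lost when the 3 remaining probe sets, all dim, were averaged in (-0.20, limma adjusted p = 0.4719), and just missed without the virgin control (adjusted p = 0.05011).

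Ring1, the alternative ligase, was dim and erratic. Its only probe set read 66.6 and 314 in virgin, 410.2 and 304 in pregnant and 330.0 and 119 in lactating glands. In virgin and in lactating glands the 2 mice of a stage differed by more than the means of any 2 stages. The lactating to virgin ratio was 0.29 ± 0.59 (SE, limma adjusted p = 0.6937) and turned negative under quantile normalization (-0.19) and median centring (-0.29). Without the virgin mutant it was 1.49 and passed the limma test (adjusted p = 0.04001), so 1 mouse decides the call.

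Cbx7, a reader of the methyl mark, gave 588 and 657 in virgin, 148.5 and 228.5 in pregnant and 262 and 112 in lactating glands. Virgin glands stood well above the other 4, which overlapped each other. Against virgin glands Cbx7 fell by 1.57 ± 0.37 in lactating glands (SE, limma adjusted p = 0.009513), or 2.97-fold. Without the virgin mutant the ratio was -1.38 (limma adjusted p = 0.07437). The other 2 Cbx7 probe sets lay under the filter.

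Probe sets of 1 gene did not always tell the same story. Among the 19 member probe sets tested between lactating and virgin glands, 9 were lower, 4 higher and 6 not called, where limma called 52.1% of all 19461 probe sets. The probe sets of Bmi1, Rnf2 and Jarid2 that passed the filter all had negative ratios. The 4 higher ones belong to Suz12 and Ezh1. Of these, 1420020_at of Suz12 and 1418290_a_at of Ezh1 reached the filter only through their high lactating values, so their calls are not independent of it.

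**Figure D2:**
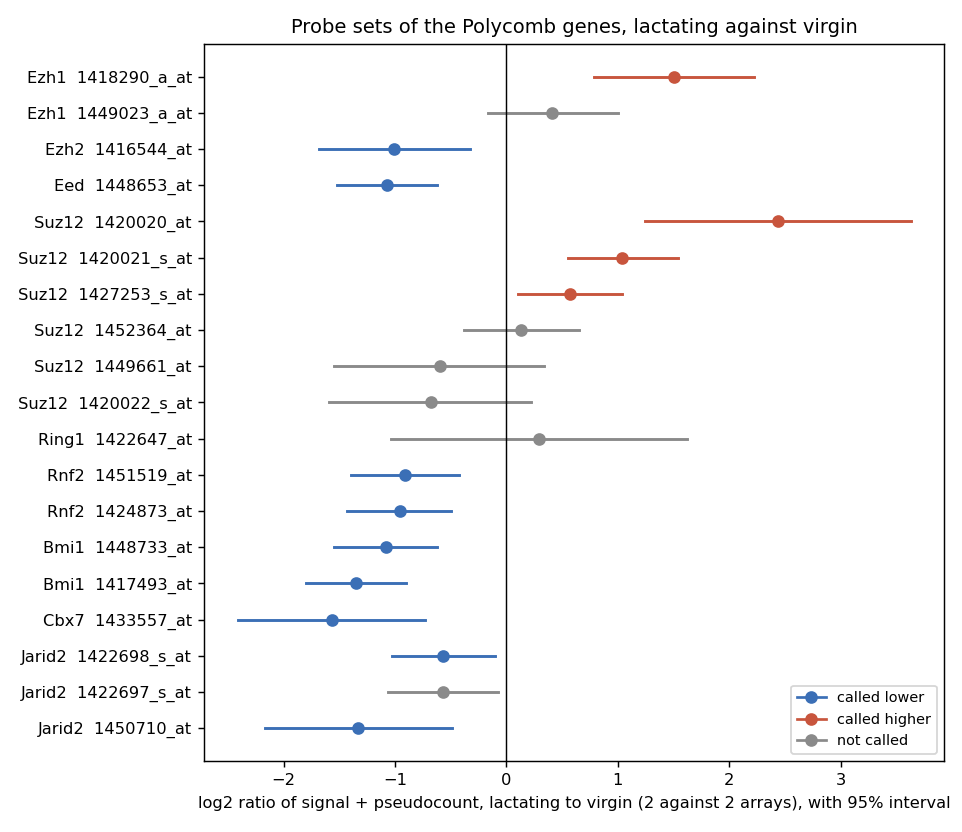
Log2 ratio of lactating to virgin glands (horizontal axis, with its 95% interval as a line) for each of the 19 member probe sets that passed the filter, grouped by gene and coloured by whether limma called them lower, higher or neither. Suz12 spreads from -0.68 to 2.44, while both Bmi1 and both Rnf2 probe sets lie between -1.35 and -0.91.

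For Suz12 the probe set 1420020_at read 16.3 and 279 in virgin, 129.7 and 225 in pregnant and 819 and 711 in lactating glands. Its lactating to virgin ratio was 2.44 ± 0.52 (SE, limma over probe sets, adjusted p = 0.005711). The brightest Suz12 probe set, 1420021_s_at, whose suffix marks probes shared with other transcripts, rose by 1.04 ± 0.21 (SE, limma adjusted p = 0.004921), from 1091 and 1357 to 2754.5 and 2386. Had that one stood for the gene, Suz12 would have been called higher in lactating glands. The set 1427253_s_at rose by 0.57 ± 0.20 (SE, limma adjusted p = 0.04666), and 1420022_s_at and 1449661_at had ratios of -0.68 and -0.60 that were not called. Which of the 6 reports the full transcript was not tested, so no direction is given for Suz12. Ezh1 had a second tested probe set, 1418290_a_at, which rose by 1.50 ± 0.31 (SE, limma adjusted p = 0.005117), from 98.3 and 120 in virgin to 476 and 342 in lactating glands.

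All 3 Jarid2 probe sets had lower values in both lactating mice than in either virgin mouse. The sets 1422697_s_at and 1422698_s_at gave ratios of -0.57 ± 0.21 (SE, limma adjusted p = 0.05133) and -0.57 ± 0.20 (SE, limma adjusted p = 0.04412). Only the second was called, and whether these ratios differ from the -1.33 of the chosen set was not tested.

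Several cell type lists moved with the same comparison, and their part in the Polycomb result was not tested. From virgin to lactating glands limma called lower 6 of 6 fibroblast, 5 of 6 endothelial, 5 of 5 T cell, 3 of 5 B cell, 4 of 6 macrophage and 3 of 5 adipocyte markers, while 4 of 6 milk genes, 1 of 6 luminal and 5 of 6 skeletal muscle markers were higher. Of 5 basal markers 2 were higher and 1 lower. Another macrophage marker, Cd14, was higher, and the summed macrophage signal was 16471 and 14655 in virgin and 19858 and 14542 in lactating glands. Several T cell and B cell markers reached the filter only through their virgin values. The summed T cell signal was 4671 and 5666 in virgin glands, 682 and 922 in pregnant and 707 and 554 in lactating glands. That of the fibroblast markers was 100921 and 100831 in virgin glands, 61668 and 69801 in pregnant and 11428 and 16926 in lactating glands. Of the cell division genes tested, 11 of 16 fell and 5 were not called. Under quantile normalization, which also gave 11 lower, those not called were Mki67 (-0.44), Ccna2 (-0.24), Cdk1 (-0.34), Aurka (-0.10) and Plk1 (-0.16). Mcm6, a subunit of the replicative helicase, fell by 4.15 ± 0.27 (SE, limma adjusted p = 0.000102), and Pcna, the sliding clamp of DNA polymerase, fell by 2.31 ± 0.23 (SE, limma adjusted p = 0.000348). The summed signal of the cell division list was 15993 and 27910 in virgin, 14336 and 23821 in pregnant and 8012 and 6670 in lactating glands. The virgin mutant was highest both for this sum and for Ezh2. In the pregnant pair the sum was higher in the mutant, and Ezh2 read 1073.2 in the control and 1069.8 in the mutant. Such a sum weighs bright genes most, and Pcna alone read 4291 and 7276 there. Aurka (419 and 362) and Plk1 (249 and 215) were lower in the pregnant mutant, and all other measured genes of the list were higher. Whether Ezh2 follows the cell division genes was not tested. No measured marker of these cell types lay under the filter's signal, 158.4, on every array.

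Between pregnancy and lactation 3 Polycomb genes fell and none rose at the chosen probe sets. They were Bmi1, Jarid2 and Rnf2, and limma called 16.9% of all genes lower, 14.9% higher and 31.8% either way. Bmi1 fell by 1.09 ± 0.18 (SE, limma adjusted p = 0.006959) and Jarid2 by 1.73 ± 0.37 (SE, limma adjusted p = 0.01367). The 2 lactating values of each lay below both pregnant ones. Rnf2 fell by 0.59 ± 0.19 (SE, limma adjusted p = 0.04975), at the edge of the threshold, and was called in only 4 of 16 alternatives. In the fit over probe sets its second bright set fell by 0.70 ± 0.21 (SE, limma adjusted p = 0.03845). The chosen set was not called there (limma adjusted p = 0.05633). Bmi1 lost its call without the pregnant mutant (-1.01), and Jarid2 without the pregnant control (-1.16). Both fits leave 1 pregnant mouse, and fewer of all genes passed in them too. Jarid2 also lost its call with its brightest probe set, 1422698_s_at, in place of the chosen one (-0.52, limma adjusted p = 0.0705).

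Eed and Ezh2 had lactating to pregnant ratios of -0.53 ± 0.18 (SE, limma adjusted p = 0.06301) and -0.45 ± 0.29 (SE, limma adjusted p = 0.2649). Both passed with median centring, which made 5 members lower. Under that setting 4554 of all 11332 genes were called, and 761 of those were higher. The remaining ratios were -0.04 for Suz12, -0.06 for Cbx7, -0.67 for Ring1 and 0.13 for Ezh1, the last of which turned to -0.28 with median centring. The member median was -0.53 and that of all genes -0.04. In the fit over probe sets 3 member sets were higher and 4 lower of 19, where 31.9% of all probe sets were called. The higher ones include 1420020_at of Suz12 and 1418290_a_at of Ezh1, which reached the filter only through their lactating values.

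Between virgin and pregnant glands only Cbx7 passed the limma test, and it fell 2.84-fold, by 1.51 ± 0.37 (SE, adjusted p = 0.03472). Of all genes 8.09% were called lower, 6.62% higher and 14.7% either way. Both pregnant mice lay well under both virgin mice. These 4 arrays share 1 array date, and the ratio comes from them alone, so leaving the lactating pair out of the fit cannot change it. Only the estimated spread changed (limma adjusted p = 0.004042 for Cbx7), and 2613 of all genes were then called, against 1667 in the full fit. The Cbx7 call was lost without the virgin control, the virgin mutant or the pregnant control. Each of these fits leaves 1 mouse at a stage, and fewer of all genes passed in them too. Over all alternatives the Cbx7 ratio ran from -1.94 to -1.07.

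Eed had a pregnant to virgin ratio of -0.55 ± 0.18 (SE, limma adjusted p = 0.08843), with no overlap between the stages. The ratios of Ezh2 (-0.56 ± 0.29), Rnf2 (-0.37 ± 0.19) and Bmi1 (-0.26 ± 0.18, each with SE) were also negative and not called, and those of Ring1 (0.96), Jarid2 (0.39), Ezh1 (0.28) and Suz12 (0.18) were positive and not called. Without the virgin mutant Ring1 was at 2.16 and passed the limma test (adjusted p = 0.03502). Over probe sets 1 member set was lower and none higher of 19, against 15.2% of all probe sets called. In the same comparison 5 of 5 T cell and 5 of 5 B cell markers were lower, as were 4 of 6 endothelial markers, and 6 of 6 skeletal muscle markers and 4 of 6 milk genes were higher, while 0 of 16 cell division genes were called, with 1 at an unadjusted p under 0.05. The part of these cells in the Cbx7 difference was not tested.

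The deposited scaling bears on these stage comparisons. With array medians made equal, the median ratio of all genes moved from -0.06 to -0.23 for pregnant against virgin, from -0.04 to -0.45 for lactating against pregnant and from -0.10 to -0.69 for lactating against virgin. The share of called genes that were higher went from 45% to 27.8%, from 46.8% to 16.7% and from 45.7% to 18.8%. The 6 members called lower in lactating against virgin glands were the same 6 under that setting and under quantile normalization. When all probe sets of a gene were averaged, 3 of 8 tested members were called, Ezh2, Bmi1 and Jarid2.

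Brca1 genotype class left no called difference in any Polycomb gene. The mutant class joins the D11/D11;p53+/- mice of the virgin and lactating pairs with the co/co/MMTV-Cre mouse of the pregnant pair. Each mean ratio therefore averages unlike genotypes. With stage as a block limma called 0 of the 9 members and 0 of all 11332 genes, or 0%, while 1 member and 534 genes had an unadjusted p under 0.05. Over probe sets it called 0 of 19 member sets and 0% of all. The 95% interval of the mutant to control log2 ratio ran from -0.38 to 0.71 for Ezh2, from -0.13 to 0.56 for Eed, from -0.45 to 0.25 for Bmi1 and from -1.09 to 1.15 for Ring1. The data do not exclude differences inside these bounds, and with 3 pairs larger ones can also miss the adjusted threshold.

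**Figure D3:**
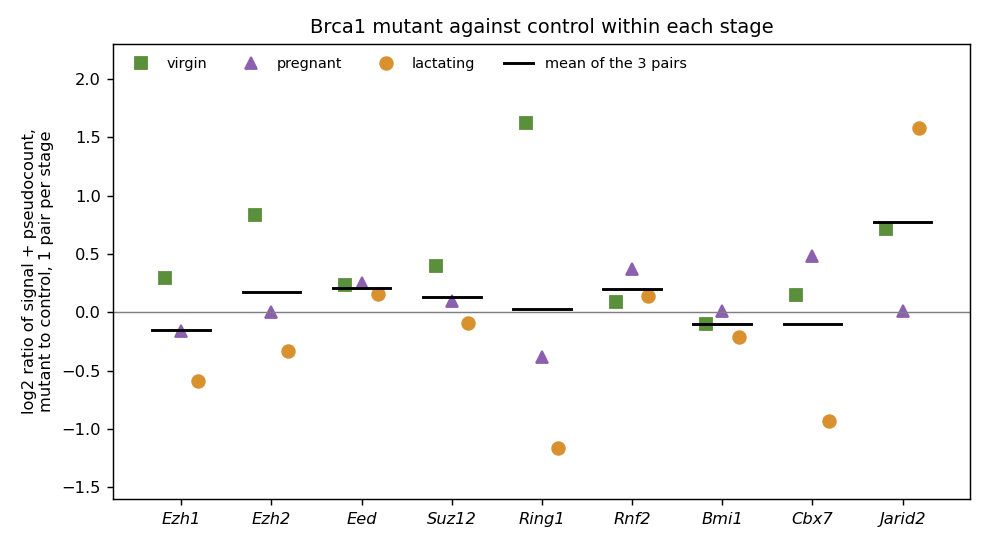
Mutant to control log2 ratio (vertical axis) of each of the 9 Polycomb genes in the virgin, the pregnant and the lactating pair, each symbol 1 pair of mice and each bar the mean of the 3 pairs. Eed, Rnf2 and Jarid2 lie above 0 in all 3 pairs, while Ring1 runs from 1.62 in the virgin to -1.16 in the lactating pair.

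Jarid2 was the member with the lowest p. Its mutant to control log2 ratio was 0.71 for virgin, 0.01 for pregnant and 1.58 for lactating mice. The mean of 0.77 ± 0.30 (SE) had a limma adjusted p = 0.9323, and it was the 1 member with an unadjusted p under 0.05. The mutant was higher in 3 of 3 pairs, but by nearly nothing in the pregnant pair. The other 2 Jarid2 probe sets were also higher in the mutant in every pair, by means of 0.22 ± 0.17 and 0.14 ± 0.16 (SE, limma adjusted p = 0.9759 and 0.9793). Over the alternatives the Jarid2 ratio ranged from 0.14 to 1.14, with limma adjusted p-values from 0.73 to 1.

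Eed was higher in the mutant by 0.23, 0.25 and 0.16 in the virgin, pregnant and lactating pairs, and Rnf2 by 0.09, 0.37 and 0.14. Their means were 0.21 ± 0.15 and 0.20 ± 0.16 (SE, limma adjusted p = 0.9323 for both). In all, 3 of 9 members had the same sign in the 3 pairs, where 25.9% of all genes did. The other 6 changed sign between stages. Ezh2 was higher in the mutant by 0.83 in the virgin pair, level in the pregnant pair and at -0.33 in the lactating pair. Cbx7 gave 0.15, 0.48 and -0.93, and Ezh1 gave 0.29, -0.16 and -0.59 in the same order.

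Other Polycomb genes did not move one way. Of 27 further genes of the complexes 23 were tested, and limma called 6 lower and 4 higher in lactating than in virgin glands, no more often than among all genes (28.2% lower, 23.8% higher). With median centring 13 of the 23 were lower and 2 higher, where 6907 of all 11332 genes were called and 1298 of those were higher. In complex 2 the histone-binding partner Rbbp7 went furthest: it read 7843.5 and 7993 in virgin glands, 4861 and 5017 in pregnant and 1507 and 1719 in lactating ones. Its fall of 2.26 ± 0.18 (SE, limma adjusted p = 0.000181) came with falls of its paralogue Rbbp4 by 1.07 and of the DNA-binding accessory subunit Aebp2 by 1.30. Rbbp4 and Rbbp7 are also subunits of other chromatin complexes. The accessory subunits Phf1 and Phf19, which bind methylated histone H3, rose by 1.45 ± 0.31 (SE, limma adjusted p = 0.006522) and 1.68 ± 0.35 (SE, limma adjusted p = 0.005755). Mtf2, of the same family, was not called.

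Among 14 tested genes of complex 1 outside the members, 1 was lower and 2 were higher, both under the shares of all genes, and with median centring 7 were lower and 0 higher. Pcgf5, a relative of Bmi1, fell by 0.65 ± 0.20 (SE, limma adjusted p = 0.02835). Cbx2 and Cbx6, relatives of Cbx7, rose by 1.02 ± 0.24 (SE, limma adjusted p = 0.009913) and 0.69 ± 0.24 (SE, adjusted p = 0.04179), and with median centring their ratios were 0.44 and 0.10 and neither was called. The ubiquitin protease Bap1 and its cofactor Asxl2, which take the mark of complex 1 off again, fell by 0.65 and 0.73, 2 of 3 genes tested.

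**Figure D4:**
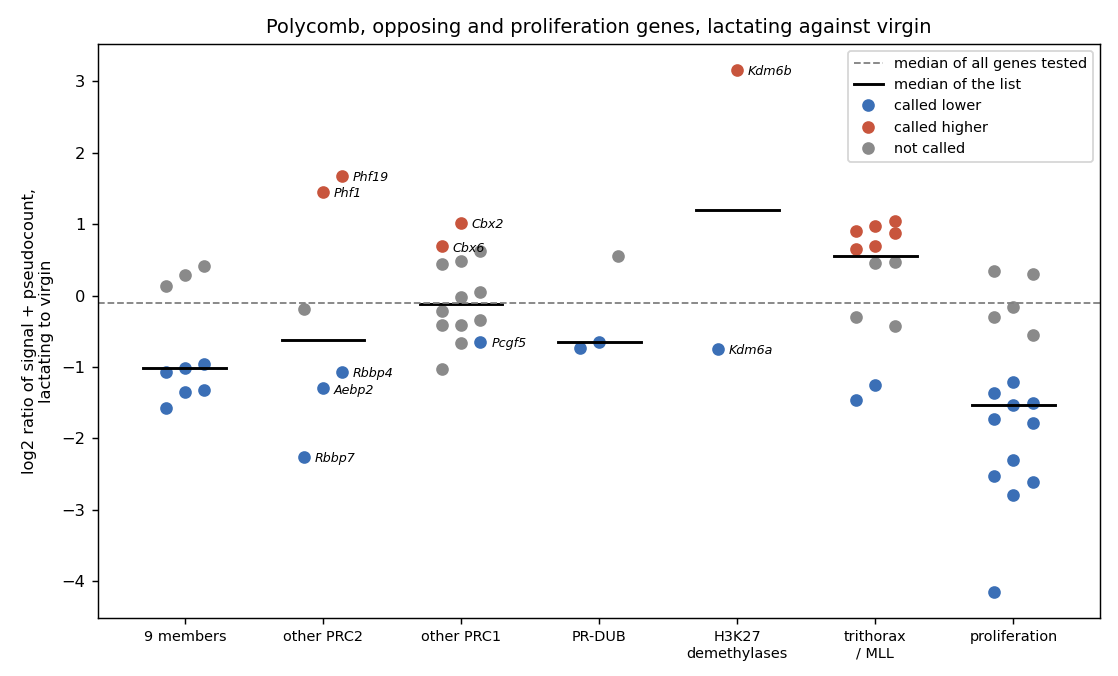
Lactating to virgin log2 ratio (vertical axis, each dot 1 tested gene) for the 9 Polycomb genes, other genes of complex 2 (PRC2), complex 1 (PRC1) and the deubiquitinase complex (PR-DUB), the lysine 27 demethylases, the trithorax group and cell division genes, coloured by the limma call. Bars are list medians and the dashed line is the median of all genes. Kdm6b, at 3.16, lies far above Kdm6a, at -0.75, and cell division genes reach down to -4.15 for Mcm6.

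The enzymes that act against Polycomb were mixed. Kdm6b, a demethylase of lysine 27, read 60.0 and 124.5 in virgin, 786 and 604 in pregnant and 1599 and 902 in lactating glands. It rose by 3.16 ± 0.35 from virgin to lactating (SE, limma adjusted p = 0.000484) and by 2.40 ± 0.35 from virgin to pregnant glands (SE, limma adjusted p = 0.006375). The 3 stages did not overlap, and the lactating to pregnant ratio of 0.76 ± 0.35 was not called (SE, limma adjusted p = 0.1299). Kdm6a, the X-linked enzyme of the same family, fell by 0.75 ± 0.19 (SE, limma adjusted p = 0.014).

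Most trithorax and MLL products place, or help to place, the opposing mark on lysine 4. Of 12 tested genes of this list, 6 were higher and 2 lower in lactating than in virgin glands, beside 23.8% and 28.2% of all genes. The higher ones were the methyltransferases Setd1a (1.04), Setd1b (0.97), Kmt2c (0.90) and Kmt2b (0.88) and the shared subunits Wdr5 (0.69) and Rbbp5 (0.65). Kmt2e and the shared subunit Dpy30 fell by 1.47 ± 0.28 (SE, limma adjusted p = 0.003837) and 1.26 ± 0.19 (SE, limma adjusted p = 0.001685). Quantile normalization also gave 6 higher and 2 lower, but with median centring 0 of the 12 were higher and 4 lower, and the list's median went from 0.56 to -0.03.

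Classic Polycomb targets were mostly dim, and 5 of 10 were tested. Cdkn1c, a cell cycle inhibitor, fell by 1.92 ± 0.27 (SE, limma adjusted p = 0.00123), and Cdkn2b, another, by 1.43 ± 0.41 (SE, limma adjusted p = 0.02044). Cdkn2b reached the filter only through its virgin values. Igf2, an imprinted growth factor, rose by 2.50 ± 0.51 (SE, limma adjusted p = 0.00557), with 26.3 in the virgin control against 314 in the virgin mutant. Cdkn2a, which Bmi1 is best known to silence, lay under the filter, with signals from 39.4 to 219.7, and Bmp2 was under the filter's signal on every array.

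Single genes that ran alongside a member over the 6 arrays are given as a description, since all values share the arrays and the stages. By Pearson's r on log2 values among 11331 other genes, Bmi1 was most like Sparcl1, Pnpla8 and Prkar2b, each at 0.999. Eed was most like Cd209b (0.999), and Rnf2 most like Adcy6 (0.999). For Ezh2 the nearest were Ap4b1 (0.985), Rfc1 (0.984), which encodes the large subunit of the clamp loader in DNA replication, and Safb2 (0.984). Cbx7 was nearest to Cyp2e1 (0.993), Ring1 to Racgap1 (0.994) and Jarid2 to Mctp2 (0.998). Ezh1 and Suz12 spanned less than 1 on the log2 scale and were not compared.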

How the data were processed

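Each deposited value is a linear MAS5 signal intensity of a probe set. The submitters' processing notes name MAS5 alone, without a version. Detection calls were not used here. Without rescaling, log2(signal + 52.1) was computed, the pseudocount being the 25th percentile over the 6 arrays.

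Each gene was represented by its brightest probe set, and those with an _s_at or _x_at suffix, which share probes with other transcripts, served only in default of others. The filter for testing was a mean log2 value of 7.718, the median of all probe sets, and 11332 genes reached it. Of the probe sets 34945 carried 1 symbol, 932 several, and 64 were controls. All 6 arrays entered 1 linear model of stage and genotype class in limma 3.58.1 under R 4.3.3, with a trend of the variance in eBayes. It left 2 residual degrees of freedom, to which the prior adds 5.53. The adjusted p is by the Benjamini-Hochberg method over all genes or probe sets tested, and a call is an adjusted p under 0.05. The number of arrays limits the precision.

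The members, gene lists and naming rule were chosen with earlier results of these data known. The rule names all members with their probe sets, the called genes of each list (up to 4 by smallest p), and for members that span at least 1 on the log2 scale the 3 genes of highest correlation, some of which are left out for brevity. Trithorax genes are named beyond that limit. Alternatives were quantile normalization, median centring, other pseudocounts and filters, averaged probe sets, a fit without the trend, no block or genotype term, and leaving out arrays or pairs. Taking the brightest probe set with only _x_at set aside was added after seeing the data. Mice were paired by their labelled stage. The code was tested on simulated data. Figures were drawn with matplotlib 3.10.9.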

Additional observations from a re-analysis of the deposited data

Results flagged for a closer look

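For 6 of the 9 Polycomb genes the mutant was above its control at 1 or 2 stages and below it at another. The gap between the highest and the lowest of the 3 pair ratios, on the log2 scale, was 2.78 for Ring1, 1.42 for Cbx7, 1.16 for Ezh2, 0.88 for Ezh1, 0.49 for Suz12 and 0.22 for Bmi1. With 1 pair of mice at each stage these differences between stages were not tested. For Ring1 the signal was 66.6 in the virgin control, near the pseudocount of 52.1, and between 119 and 410.2 in the other 5 mice. The ratio of its virgin pair thus rests on a dim value. The order from Ezh2, high in the virgin mutant alone, to Bmi1, nearly level in every pair, is a description of these 6 mice.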

How the results depend on the processing

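For lactating against virgin glands the 6 calls became 3 when a gene's probe sets were averaged, and leaving out 1 array gave 4 to 6. Of the 6 reported genes 3 were still called without the virgin mutant, where Ring1 was called higher, 4 without the virgin control, 5 without the lactating control, and 5 without the lactating mutant, where Ezh1 was called higher. Lactating against pregnant glands had 3 calls, 5 with median centring and 1 with the filter at the 75th percentile, and between 1 and 2 with 1 array left out. The single pregnant against virgin call became 0 under quantile normalization, no filter, the 75th percentile filter and the mean of probe sets, and 0 to 1 with 1 array left out. Without the virgin mutant that 1 call is Ring1, higher, and not Cbx7. For mutant against control the count was 0 in every alternative. At the 75th percentile filter Ring1, Cbx7 and Jarid2 were no longer tested, and with the mean of probe sets Cbx7 was not, which lowers those counts by construction. Otherwise the cause was not tested.

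Directions turned for all members but Bmi1, Ezh2 and Cbx7 in at least 1 alternative that kept all arrays. For mutant against control Ring1 was at -0.057 under quantile normalization, -0.011 with median centring and -0.017 with the pseudocount at the 50th percentile, against 0.03 as reported. For lactating against virgin glands Ring1 was at -0.19 (quantile) and -0.29 (median centring), and median centring gave Ezh1 -0.17 and Suz12 -0.46. For lactating against pregnant glands it gave Ezh1 -0.28. The mean of probe sets gave Rnf2 0.066 in pregnant against virgin glands, and Eed 0.082 and Suz12 0.18 in lactating against pregnant glands. The brightest probe set with only _x_at set aside gave Suz12 -0.076 and Jarid2 -0.047 in pregnant against virgin glands, and Suz12 1.12 in lactating against pregnant glands.

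With 1 pair left out, mutant to control ratios ran from -0.17 to 0.41 for Ezh2, from -0.77 to 0.62 for Ring1, from -0.38 to 0.062 for Ezh1 and from -0.39 to 0.32 for Cbx7. With 1 array left out, pregnant to virgin ratios ran from -0.0485 to 0.62 for Ezh1, from -0.021 to 0.38 for Suz12, from -0.24 to 2.16 for Ring1 and from -0.17 to 0.96 for Jarid2. Lactating to pregnant ratios ran from -0.19 to 0.45 for Ezh1, from -0.22 to 0.13 for Suz12, from -1.56 to 0.23 for Ring1 and from -0.69 to 0.56 for Cbx7. Lactating to virgin ratios ran from -0.065 to 0.33 for Suz12 and from -0.90 to 1.49 for Ring1. Where that leaves 1 mouse at a stage, it is assumed to vary like the others. In such fits fewer of all genes passed as well, for every comparison with that stage.

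The mutant against control fit pairs the mice by stage, and without that block it also called 0 members. Signals near the pseudocount, as for Ring1 and Jarid2 in single mice, limit how well ratios of dim members are measured.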
